A study of Mus musculus with 24 samples.

Results

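Alveolar macrophages given IL-33 together with IL-13 were compared with alveolar macrophages given IL-13 alone. The comparison was defined by the treatment labels: 3 libraries labelled rIL-33/rIL-13 (IL-33+IL-13 below) against 3 labelled rIL-13 (IL-13 below), which are 6 of the 24 libraries of the series. It was made over all genes that reached 1 TPM (transcripts per 1000000, a level scaled by gene length and library size) in at least 3 of the 24 libraries, which were 13215 of the 17017 genes in each table. All libraries came from primary alveolar macrophages of wild-type BALB/cJ mice, 20 h after stimulation. The remaining 18 libraries are 6 further groups of 3: untreated cells, and cells given IL-33, IL-17A, IL-33+IL-17A, IL-13+IL-17A or IL-33+IL-13+IL-17A. The labels state neither doses nor the age of the mice nor the order in which cytokines were added. They also do not say whether the 3 libraries of a group stem from different mice or dishes, so a p-value here reflects the scatter among these libraries, which may be technical. The question addressed is what IL-33 adds in macrophages that already receive IL-13; the series as titled deals with these cytokines in lung fibroblasts and with factors that act on macrophages.

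Alveolar macrophages are the resident phagocytes of the air spaces. IL-13, a type 2 cytokine, signals through a receptor that contains Il4ra and activates the transcription factor STAT6, which switches on the programme known as alternative activation. IL-33, an alarm signal that injured barrier cells set free, binds ST2, encoded by Il1rl1, which pairs with Il1rap and signals through Myd88 towards NF-kB. In allergic lung inflammation both cytokines are present, and IL-33 is known to strengthen alternative activation in macrophages that carry ST2.

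The 6 libraries held 10.05 to 11.60 M reads (M for 1000000 reads, recovered from the TPM values) for IL-13 and 9.18 to 10.54 M for IL-33+IL-13. Mitochondrial genes took 0.831 to 0.875% of the reads for IL-13 and 0.771 to 0.945% for IL-33+IL-13. The scatter of recovered reads between libraries of 1 group, as an index of dispersion in which 1 is counting noise alone, was 1.86 to 1.89 for pairs of IL-13 libraries and 1.74 to 4.09 for pairs of IL-33+IL-13 libraries. It was higher for pairs with untreated replicate 1 (6.23 to 6.42), IL-17A replicate 2 (4.86 to 7.29) and IL-33+IL-13+IL-17A replicate 2 (16.6 to 21.7), which stood apart from their groups, and for pairs with IL-33 replicate 3 (4.40 to 5.98). The alveolar macrophage markers Siglecf (303 ± 13.2 TPM with IL-13 and 296 ± 10.9 TPM with IL-33+IL-13), Itgax and Fabp4 were present in both groups, whereas Marco, a scavenger receptor usually listed among them, was below 1 TPM (0.438, 0.484 and 0.568 TPM with IL-13, 0.251, 0.202 and 0.316 TPM with IL-33+IL-13). Of 7 marker lists of other cell types with members in the tables, none had a called member. These lists had only 1 to 6 tested genes each, beside 2.57% of all tested genes called, so few calls or none would be expected. A list of monocyte and interstitial macrophage genes, counted apart, had 1 higher and 1 lower gene of 14 tested. Summed levels of epithelial markers (8 of 14 in the tables, mostly Cdh1 and Krt19) were 64.6 to 67.7 TPM with IL-13 and 55.8 to 60 TPM with IL-33+IL-13, and of endothelial markers (7 of 10, mostly Vwf) 9.18 to 10.2 and 10.2 to 11.7 TPM. Neutrophil and eosinophil markers (5 of 15) summed to 81.4 to 97.8 and 69.7 to 113 TPM, and 2 of the 4 tested had an unadjusted p under 0.05; the part of these markers in the results was not tested. Single members were at or near 0. Col1a1 and Pecam1 averaged 0.130 and 0.0102 TPM with the combination, and Camp, of neutrophil granules, was at 0 in all 6 libraries. Other members of their lists had higher levels, so these values do not show that such cells were absent. Mast cell and basophil markers were not analysed here. The gene length behind each TPM value is the span of the gene with its introns, so a level compares libraries for 1 gene and never 1 gene with another.

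**Figure D1:**
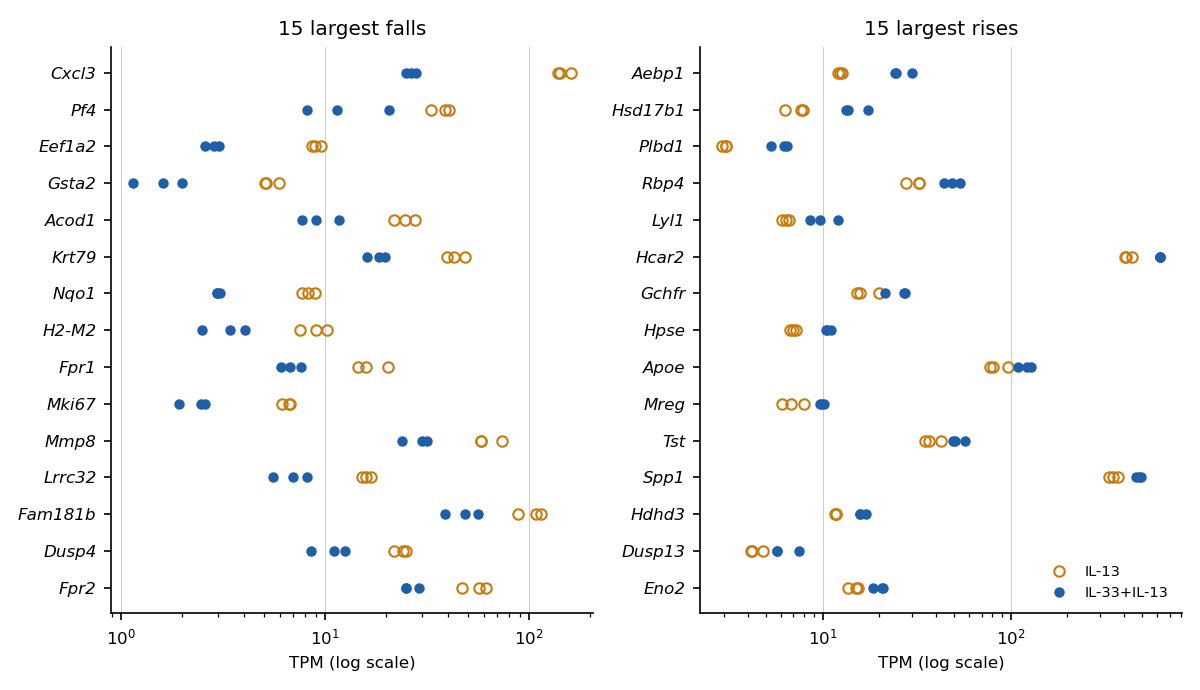
TPM in each library (log scale) for the 15 genes with the largest falls (left) and the 15 with the largest rises (right) in IL-33+IL-13 against IL-13, of genes called with a mean of at least 5 TPM in a group. Each open circle is an IL-13 library and each filled circle an IL-33+IL-13 library; the 3 libraries of a group lie beyond the 3 of the other for every gene shown, and Cxcl3 shows the widest separation.

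With IL-33 added, 340 of 13215 genes (2.57%) differed from IL-13 alone at an adjusted p under 0.05 (limma, Benjamini-Hochberg over all tested genes). Of these, 230 were lower (1.74%) and 110 higher (0.832%), so lower genes outnumbered higher ones. Changes were modest: 20 lower and 4 higher genes reached 2-fold on the log2(TPM + 1) scale, and the median size was 0.40 for the lower genes and 0.26 for the higher ones. The 3 libraries of one group lay beyond the 3 of the other for all 110 higher genes and for 229 of the 230 lower genes (all but Cttn, log2 fold change -0.32), beside 18.8% of all 13215 tested genes. Among the gene lists examined, the largest shares of lower genes were in the antioxidant and cell cycle lists and the largest share of higher genes in the lysosome list. No gene of the IL-33 (22 tested) or IL-13 (24 tested) receptor lists was called, where few calls or none would be expected at 2.57%. The counts depended on single libraries: leaving out 1 library at a time gave 55 (without IL-33+IL-13 replicate 2), 59 (without IL-13 replicate 3), 69 (without IL-33+IL-13 replicate 3) and 73 (without IL-13 replicate 1) higher genes, and 139 (without IL-13 replicate 1), 148 (without IL-33+IL-13 replicate 3), 152 (without IL-33+IL-13 replicate 1) and 153 (without IL-13 replicate 3) lower genes. A fit of the 6 libraries alone called 32 higher and 112 lower, and with array weights 258 and 503. Without the 3 libraries of other groups that stood apart (an alternative chosen after seeing the data), 179 were higher and 324 lower.

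The largest fall was in Cxcl3, a chemokine that attracts neutrophils, encoded on chromosome 5, bases 90786103 to 90789600 (mm10). Cxcl3 was at 161, 139 and 142 TPM with IL-13 and at 26.5, 27.9 and 25.1 TPM with IL-33+IL-13, beside 5.83 ± 1.46 TPM in untreated cells (mean ± SD, n = 3 here and below). The 2 groups were far apart, and the combination kept 18% of the IL-13 level (log2 fold change -2.43, SE 0.21, adjusted p = 8.62e-07). Cxcl2, a neighbouring neutrophil chemokine gene, fell from 82.2, 69.6 and 77.8 TPM to 31.7, 48.6 and 41 TPM, and Pf4, platelet factor 4, a chemokine gene of the same cluster, from 40.3, 33.1 and 38.6 TPM to 11.5, 20.5 and 8.13 TPM. The fall of Cxcl2 and that of Pf4 were each lost under 7 of the 15 other settings tried, while that of Cxcl3 was called under every one. The CC chemokines Ccl6 and Ccl9, which attract monocytes and other leukocytes, fell from 807 ± 51.1 to 485 ± 23.8 TPM and from 398 ± 16.9 to 206 ± 16.6 TPM. Of 22 chemokines and chemokine receptors tested, 5 fell and 1 rose, beside 1.74 and 0.832% of all tested genes. The member that rose was the receptor Cxcr1 (466 ± 13.5 to 598 ± 12.7 TPM). Leaving out any library but IL-33+IL-13 replicate 2 left 3 that fell, and of these 6 fits the one without IL-13 replicate 2 alone kept the call of Cxcr1. Ccl22, which IL-13 raised, was at 23.6 ± 2.49 and 21.4 ± 0.278 TPM and was not called.

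Promoter sequence is shown for Cxcl3, Cxcl2, Acod1 and H2-M2, genes that fell and whose promoters hold an NF-kB core motif. This motif was looked for because IL-33 is known to signal towards NF-kB, and only genes with a match are shown. The motif searched was GGANTTTCC on both strands, in the 300 bases from 250 before to 50 after each gene start of the RefSeq promoter table (GRCm38.p6). Each line gives 60 bases of the gene's own strand, 5′ to 3′, with the match in capitals.
Cxcl3: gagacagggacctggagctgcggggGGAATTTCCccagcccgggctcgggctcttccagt
Cxcl2: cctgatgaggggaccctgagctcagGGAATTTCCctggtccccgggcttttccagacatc
Acod1: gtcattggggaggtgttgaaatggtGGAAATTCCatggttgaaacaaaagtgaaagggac
H2-M2: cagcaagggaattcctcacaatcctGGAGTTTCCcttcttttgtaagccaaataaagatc
The windows are chr5:90786004-90786063 (+ strand, Cxcl3), chr5:90903778-90903837 (+ strand, Cxcl2), chr14:103046902-103046961 (+ strand, Acod1) and chr17:37483666-37483725 (- strand, H2-M2). The match starts 72, 96, 85 and 146 bases before the respective gene start. The matches of Cxcl3 and Cxcl2 carry the same letters, GGAATTTCC, and that of Acod1 holds them on the other strand. Of the 230 lower genes 176 had a promoter in the table and 12 of these (6.82%) held the motif, beside 2 of 86 higher genes (2.33%), 146 of 8906 tested genes (1.64%) and 412 of all 32851 promoters (1.25%). Of the 15 largest falls 13 had a promoter in the table and 3 held the motif. For Pf4, Ccl6 and Ccl9, chemokine genes that fell as well, no match was found. A match is a description of letters, not a binding site, and no factor was measured here.

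**Figure D2:**
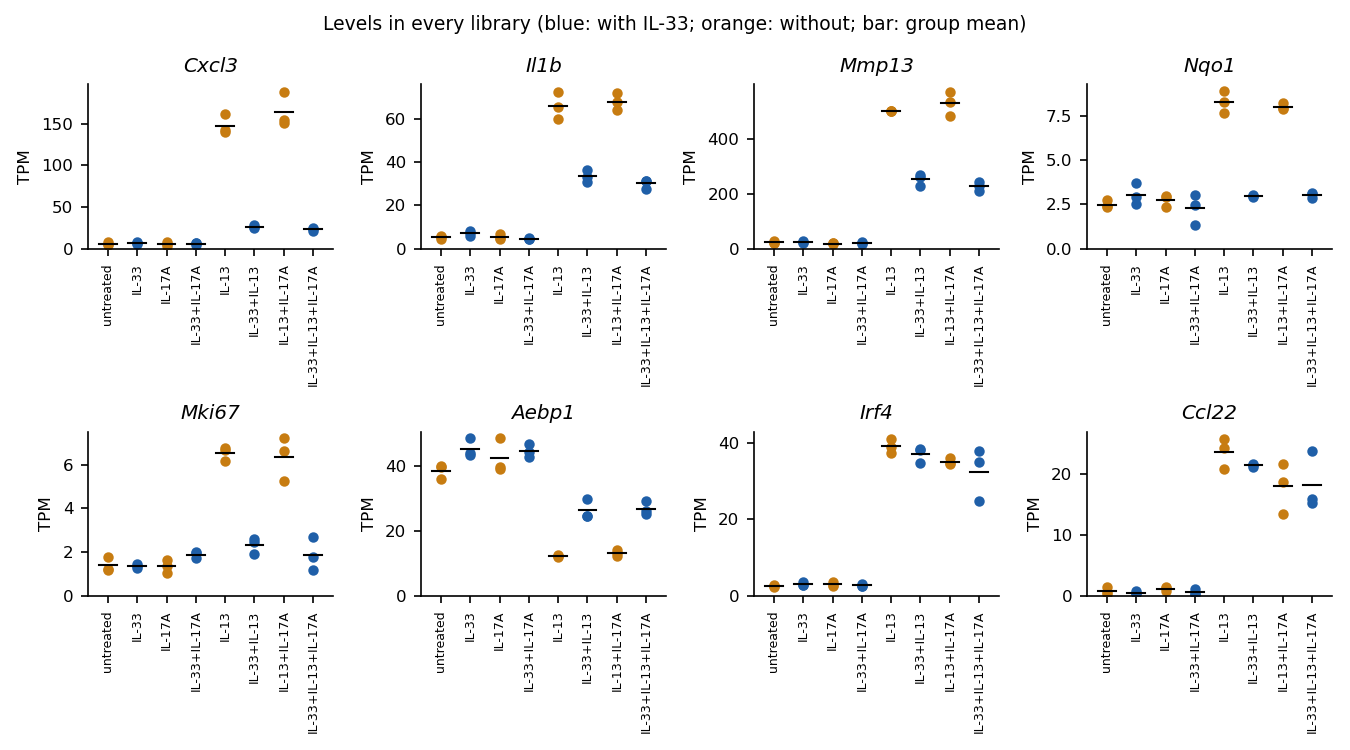
TPM of 8 genes in every library of the 8 groups (points, linear axis from 0) with group means (bars); blue marks groups given IL-33 and orange groups not given it. Cxcl3, Il1b, Mmp13, Nqo1 and Mki67 are high with IL-13 and lower where IL-33 is present beside IL-13, Aebp1 is the reverse, and Irf4 and Ccl22 are alike with and without IL-33.

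Genes for inflammatory and tissue-degrading products were lower with IL-33 as well. Il1b, which encodes the pro-inflammatory cytokine IL-1 beta, was at 72.6, 59.9 and 65.6 TPM with IL-13 and 30.9, 36.4 and 33 TPM with IL-33+IL-13, beside 5.34 ± 0.661 TPM untreated (log2 fold change -0.96, SE 0.12, adjusted p = 7.68e-05). The groups did not overlap, and the combination remained above untreated cells in every library. The collagenase genes Mmp13 (502, 502 and 501 against 229, 269 and 263 TPM) and Mmp8 (58.1, 58 and 73.5 against 23.9, 31.7 and 29.9 TPM) fell, as did the metalloprotease Mmp19 (473 ± 7.59 against 284 ± 14.7 TPM) and, by less, the elastase Mmp12 (3225 ± 144 against 2916 ± 136 TPM). Of 16 matrix and remodelling genes tested, 5 fell and 2 rose, beside 1.74 and 0.832% of all tested genes. Those that rose were Spp1, which encodes osteopontin, and Plau, the urokinase gene (208 ± 3.46 against 271 ± 22.7 TPM). The number that fell was 3 without IL-13 replicate 3, without IL-33+IL-13 replicate 3 and in a fit of the 6 libraries alone. Of 22 inflammatory NF-kB targets, 4 fell (Il1b, Cxcl2, Cxcl3 and the mitochondrial superoxide dismutase Sod2) and none rose, beside 1.74 and 0.832% of all tested genes. The median log2 change was -0.10 over the tested members and 0.00 over all genes. The number that fell was 2 without IL-13 replicate 1, and 2 to 8 over all settings. Tnf was at 120.0, 116 and 133 TPM and 92.7, 104 and 102 TPM, without overlap, and missed the threshold (adjusted p = 0.0691).

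Most genes of antioxidant defence fell. Many of them are targets of Nrf2, a transcription factor that its partner Keap1 holds in check until cells meet oxidants or electrophiles. Of 25 such genes tested, 16 fell and none rose, beside 1.74% of all genes called lower, with a median log2 change of -0.32; under the other settings 14 to 21 fell and none rose. Nqo1, a quinone reductase on chromosome 8, bases 107388225 to 107403206, was at 8.91, 7.70 and 8.29 TPM with IL-13, 3.06, 2.94 and 2.96 TPM with IL-33+IL-13 and 2.50 ± 0.210 TPM untreated (log2 fold change -1.22, SE 0.14, adjusted p = 2.15e-05). Its 3 libraries with the combination lay close to the untreated level and far below IL-13. Gclm, the regulatory subunit of the enzyme that starts glutathione synthesis, fell from 61.2, 65.6 and 63.2 TPM to 39, 40.6 and 39.8 TPM. Srxn1, which repairs peroxiredoxins, fell from 991, 1015 and 1028 TPM to 617, 673 and 651 TPM (adjusted p = 7.46e-07), and the peroxiredoxin Prdx1 itself from 1391, 1364 and 1449 TPM to 975, 936 and 968 TPM (adjusted p = 1.45e-07). For Prdx1, every library with the combination was also below the untreated mean of 1109.5 ± 28.9 TPM. The catalase gene Cat fell from 144 ± 4.35 to 106 ± 2.36 TPM, and the thioredoxin reductase Txnrd1 from 136 ± 4.99 to 106 ± 3.83 TPM. The pentose phosphate pathway members of the list, G6pdx, Pgd, Taldo1 and Tkt, fell, for example Pgd from 661 ± 8.03 to 514 ± 16.2 TPM, whereas the malic enzyme Me1 was at 0.984 ± 0.0613 and 0.584 ± 0.0676 TPM and was not called (adjusted p = 0.135). The genes of the regulators were not called: Nfe2l2, which encodes Nrf2, was at 92.3 ± 1.45 and 90.4 ± 6.16 TPM, and Keap1 at 98.7 ± 3.95 and 93 ± 3.60 TPM.

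**Figure D3:**
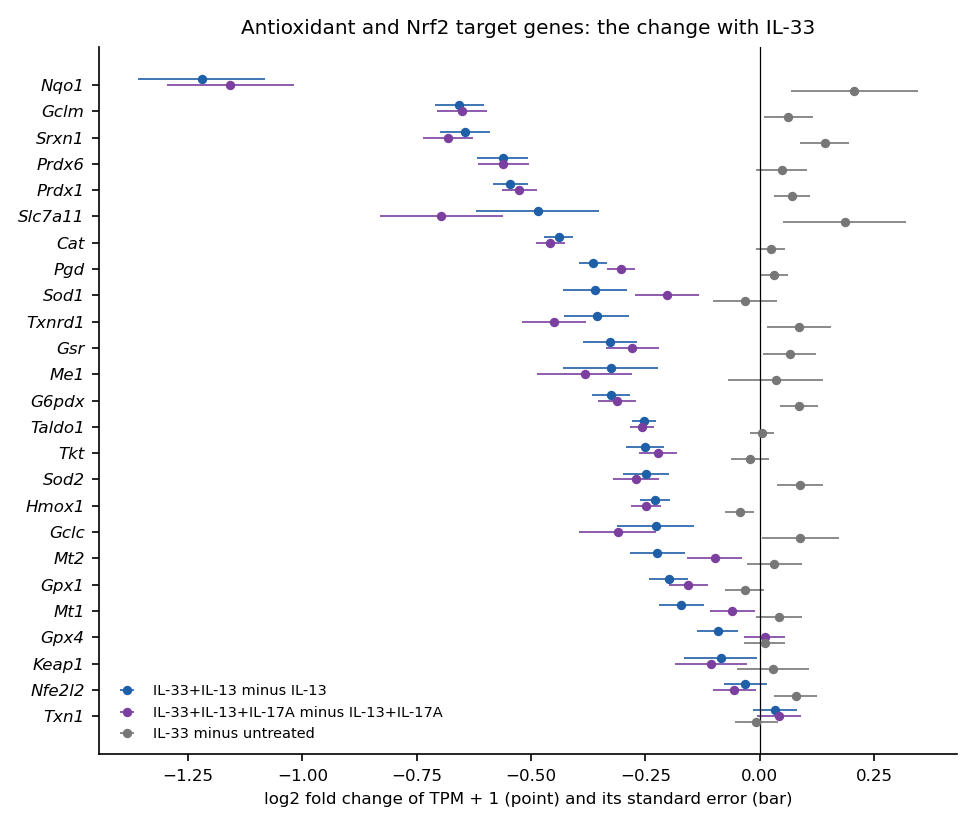
Log2 fold change of TPM + 1 with IL-33 (points) and its standard error (bars) for the 25 antioxidant and Nrf2 target genes in 3 comparisons that share no library. With IL-13 present, without or with IL-17A, most genes lie below 0, down to -1.22 for Nqo1, whereas with IL-33 alone against untreated cells they lie around 0.

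The promoters of 3 antioxidant genes that fell are shown because each holds the core of the antioxidant response element, the motif that Nrf2 is known for. The core was searched as TGACNNNGC on both strands in the same RefSeq windows, and was chosen after the fall of these genes had been seen; it overlaps the AP-1 motif TGANTCA where its letters are TGACTCAGC. Capitals mark the match, which lies on the other strand in all 3. In Prdx1 it is the form that overlaps the AP-1 motif.
Gclm: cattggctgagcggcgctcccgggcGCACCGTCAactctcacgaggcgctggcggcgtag
Prdx1: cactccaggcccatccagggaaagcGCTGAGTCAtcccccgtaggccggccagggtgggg
Txnrd1: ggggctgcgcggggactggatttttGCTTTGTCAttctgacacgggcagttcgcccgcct
The windows are chr3:122245398-122245457 (+ strand, Gclm), chr4:116685441-116685500 (+ strand, Prdx1) and chr10:82859089-82859148 (+ strand, Txnrd1), and the match starts 134, 133 and 92 bases before the respective gene start. Of the 16 antioxidant genes that fell, 13 had a promoter in the table and 7 held the core (53.8%), and of the 9 not called, 8 had one and 3 held it (37.5%). Among all lower genes it stood in 30 of 176 (17.05%), beside 17.1% of 8906 tested genes and 12.4% of all promoters. The AP-1 motif stood in 20 of 176 lower genes (11.4%) and 6.04% of tested genes, and the STAT6 motif, TTC and GAA parted by 4 bases of any kind, in 13 of 176 (7.39%) and 6.30%.

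Heme-handling genes that neighbour this group in function also fell. Hmox1, heme oxygenase, was at 525, 504 and 512 TPM with IL-13 and 422, 442 and 450.5 TPM with IL-33+IL-13. Blvrb, biliverdin reductase B, fell from 125, 124 and 128 TPM to 82.9, 83.8 and 84.3 TPM (log2 fold change -0.58, SE 0.05, adjusted p = 1.1e-06), and Slc48a1, a heme transporter, from 383 ± 9.51 to 305 ± 8.37 TPM. Of the 17 iron and heme genes tested, these 3 fell and none rose, beside 1.74 and 0.832% of all tested genes. The ferritin genes Fth1 and Ftl1 were not called. Gsta2, a glutathione transferase gene with near-identical relatives between which reads can be split, was at 5.97, 5.11 and 5.14 TPM and 1.15, 1.61 and 1.98 TPM and is reported as uncertain.

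Cell cycle genes formed the other large group among the falls. IL-13 alone raised 28 of 32 tested over untreated cells (14.1% of all genes were called higher in that comparison, and 29.8% in either direction; it shares the IL-13 libraries). With IL-33 added, 13 of the 32 fell and none rose, beside 1.74 and 0.832% of all tested genes. The median log2 change of the list was -0.40. The count that fell was 7 to 19 under the other settings, with none raised. It was 8 without IL-13 replicate 1 and 9 to 12 with the other libraries left out in turn. Mki67, the proliferation marker Ki-67, was at 6.77, 6.67 and 6.17 TPM with IL-13, 2.59, 2.47 and 1.92 TPM with IL-33+IL-13 and 1.40 ± 0.343 TPM untreated (log2 fold change -1.18, SE 0.16, adjusted p = 0.000138). The 3 combination libraries were all below 3 TPM and all IL-13 libraries above 6 TPM. Top2a, the topoisomerase of dividing cells, fell from 3.79, 3.99 and 3.88 TPM to 1.47, 1.81 and 1.39 TPM, and Birc5, survivin, from 2.47, 2.84 and 3.61 TPM to 0.672, 0.948 and 1.04 TPM. Genes of DNA replication fell too, among them the ribonucleotide reductase subunit Rrm2 (14 ± 1.15 to 6.56 ± 0.596 TPM) and the helicase subunit Mcm7 (39 ± 0.814 to 24.7 ± 1.74 TPM). Pcna (503 ± 15.4 and 493 ± 15.5 TPM) and the D-type cyclin Ccnd1 (9.63 ± 0.490 and 9.47 ± 0.490 TPM) were not called. In bulk RNA, fewer cells of a kind and less RNA per cell cannot be told apart, so a lower Mki67 level does not say how many cells were cycling.

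Genes of IL-13 signalling, and some of its most responsive targets, were not called. None of 24 genes of the IL-13 receptor, JAK-STAT signalling and its feedback passed limma's test (1 at an unadjusted p under 0.05, 0 by voom). Of all tested genes 2.57% were called. At that share a list of 24 genes would hold few calls or none, so the count does not set this list apart. Cish, a feedback inhibitor and the gene with the largest rise in cells given IL-13+IL-17A, was at 142, 143 and 119.8 TPM with IL-13 and 116, 133 and 129 TPM with IL-33+IL-13, beside 0.934 ± 0.727 TPM untreated (log2 difference -0.09, SE 0.20), and the 2 groups overlapped. Irf4, a transcription factor of alternative activation, was at 41, 39 and 37.2 and 34.6, 38 and 38.3 TPM, and Pparg, a nuclear receptor of alveolar macrophages, at 22.6 ± 0.863 and 22.2 ± 0.980 TPM. Of 26 alternative activation genes, 6 fell and 1 rose, beside 1.74 and 0.832% of all tested genes. Chil3, a chitinase-like protein gene and a standard marker, fell from 5102, 5081 and 5317 TPM to 4522, 4182 and 4323 TPM, a small and even difference (log2 fold change -0.25, SE 0.04, adjusted p = 0.00052); its near-identical relative Chil4 fell from 2.03, 1.95 and 1.70 to 0.666, 0.398 and 0.963 TPM, and reads of the pair may be split between them. Ocstamp and Dcstamp, which drive macrophage fusion, fell from 36 ± 0.644 to 25.2 ± 1.69 TPM and from 12.3 ± 0.786 to 7.17 ± 0.836 TPM. Ch25h, cholesterol 25-hydroxylase, fell from 953 ± 22.3 to 669.7 ± 60.8 TPM, and the dectin-1 gene Clec7a from 1546 ± 15 to 1407 ± 23.6 TPM. The member that rose was Retnla, which encodes the secreted protein RELM-alpha, at 0.932, 0 and 0 TPM with IL-13 and 4, 1.61 and 1.51 TPM with the combination (adjusted p = 0.011), a call that was lost under 5 of the 15 other settings. Arg1, at 1.45, 1.13 and 1.66 and 0.712, 0.753 and 0.943 TPM, was not called.

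Of 27 alveolar macrophage genes tested, 4 fell and none rose, beside 1.74 and 0.832% of all tested genes. Besides Chil3 these were Krt79, a keratin gene, Ear2, an eosinophil-type ribonuclease gene with close relatives, and Plet1. Krt79 was at 48.6, 42.7 and 39.6 TPM with IL-13 and 19.7, 16 and 18.3 TPM with IL-33+IL-13 (log2 fold change -1.23, SE 0.11, adjusted p = 1.1e-06), and Ear2 at 4628, 4138 and 3807 and 2858, 2768 and 3069.9 TPM. In both, the groups were apart, and the combination stayed above the untreated means of 3.37 ± 0.311 and 687 ± 91.4 TPM.

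Receptors and lipid mediator enzymes changed in a few members each. The formyl peptide receptors Fpr1 and Fpr2, which sense bacterial peptides, fell from 20.3, 15.8 and 14.6 to 7.60, 6.73 and 6.06 TPM and from 61.6, 56.8 and 46.8 to 24.9, 28.9 and 25 TPM. Clec4n, the dectin-2 gene, fell from 165, 166 and 171 TPM to 103, 105 and 98.5 TPM, below the untreated mean of 139 ± 1.32 TPM (log2 fold change -0.71, SE 0.05, adjusted p = 8.63e-08). Of 23 genes of the Toll-like and Fc receptor list, 4 fell and none rose, beside 1.74 and 0.832% of all tested genes. No Toll-like receptor gene of the list was called. Pla2g7, which encodes the phospholipase that degrades platelet-activating factor, had the smallest p of all genes tested: 48.2, 45.8 and 46.4 TPM with IL-13, 26.9, 28.7 and 28.7 TPM with IL-33+IL-13 and 53.3 ± 1.02 TPM untreated (log2 fold change -0.72, SE 0.04, adjusted p = 2.9e-08). Of leukotriene synthesis, the 5-lipoxygenase activating protein gene Alox5ap fell from 41.1 ± 1.84 to 28.6 ± 1.35 TPM and Ltc4s, leukotriene C4 synthase, from 128 ± 13.9 to 90.5 ± 5.42 TPM, the latter call lost under 6 of the 15 other settings. Hpgds, prostaglandin D synthase, rose from 10.3 ± 0.690 to 12.7 ± 0.402 TPM (lost under 3), and Ptgs1, a cyclooxygenase gene raised by IL-13, was at 20.9 ± 0.666 and 19.9 ± 1.37 TPM and was not called.

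Further falls stood outside these groups. Acod1, which makes itaconate, was at 21.8, 24.6 and 27.6 TPM with IL-13 and 7.73, 11.6 and 9.04 TPM with IL-33+IL-13, so all 3 combination libraries lay below the untreated mean of 18.2 ± 2.12 TPM as well (log2 fold change -1.30, SE 0.17, adjusted p = 9.86e-05). Eef1a2, a translation elongation factor, fell from 8.65, 9.56 and 8.92 to 3.03, 2.85 and 2.57 TPM, and H2-M2, a non-classical MHC class I gene, from 10.2, 7.52 and 9.04 to 4.04, 3.42 and 2.50 TPM. Lrrc32, which encodes the TGF-beta docking protein GARP, fell from 16 ± 0.796 to 6.91 ± 1.30 TPM, Fam181b from 104 ± 14 to 47.9 ± 8.84 TPM, and the MAP kinase phosphatase Dusp4 from 23.6 ± 1.65 to 10.7 ± 2.05 TPM. Igf1, a growth factor gene, fell from 20.7 ± 1.41 to 14.1 ± 0.728 TPM. Of 22 hypoxia and glycolysis genes 5 fell and 1 rose, beside 1.74 and 0.832% of all tested genes. Each of these list members changed by a log2 change of at most 0.31. Only 1 fell without IL-13 replicate 1, IL-13 replicate 3 or IL-33+IL-13 replicate 1, and 2 fell without IL-33+IL-13 replicate 3. Without either remaining library 3 fell, and in a fit of the 6 libraries alone 0 fell. Of 23 cholesterol synthesis genes 3 fell (Acat2, Dhcr7 and Mvd) and none rose, beside 1.74 and 0.832% of all tested genes. The call of Mvd was lost under 7 of the 15 other settings, and 1 gene of the list fell in a fit of the 6 libraries alone.

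The rises were smaller and fewer. Aebp1, a regulator linked to extracellular matrix, on chromosome 11, bases 5861947 to 5872088, was at 12.7, 12.1 and 12.3 TPM with IL-13 and 24.5, 29.9 and 24.4 TPM with IL-33+IL-13, between that level and the untreated 38.5 ± 2.23 TPM (log2 fold change 1.02, SE 0.09, adjusted p = 9.07e-07). Hsd17b1, a steroid dehydrogenase gene, rose from 6.31, 7.85 and 7.69 to 13.4, 17.4 and 13.7 TPM, and Plbd1, a phospholipase B-like gene, from 3.05, 3.05 and 2.92 to 5.34, 6.25 and 6.44 TPM. Rbp4, the plasma carrier of retinol, differed from these in that IL-13 raised it: 8.03 ± 0.754 TPM untreated, 32.7, 27.7 and 32.7 TPM with IL-13 and 53.7, 48.7 and 44.3 TPM with the combination. Hcar2, the receptor for niacin and beta-hydroxybutyrate, rose from 442, 412 and 405 TPM to 622, 618 and 619.8 TPM, one of the more even changes (SD 2.07 TPM with the combination). Hpse, heparanase, rose from 6.96 ± 0.243 to 10.7 ± 0.372 TPM, Spp1 from 369.8, 335 and 351 to 466, 479 and 492 TPM, and Apoe, the lipid carrier, from 96.8, 77.3 and 80.7 to 109, 122 and 128 TPM. Lyl1, a transcription factor gene that IL-13 lowered from 44.6 ± 4.10 TPM, rose from 6.12, 6.61 and 6.41 to 9.69, 12 and 8.56 TPM. The others among the 15 were Gchfr, Mreg, Tst, Hdhd3, Dusp13 and Eno2, with log2 fold changes of 0.43 to 0.55; Hdhd3 was lost under 8 of the 15 other settings, and Apoe, Dusp13 and Gchfr under 5 each.

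Lysosomal genes were the list with the most rises. Of 29 tested, 8 rose and none fell, beside 0.832% of all genes called higher, with a median log2 change of 0.07. Hexa, a lysosomal hexosaminidase subunit, rose from 346, 344 and 347 TPM to 397, 401 and 391 TPM, beside 477 ± 0.556 TPM untreated (log2 fold change 0.20, SE 0.02, adjusted p = 6.64e-06). Lamp1, the lysosomal membrane protein, rose from 1250.0, 1250.4 and 1264 TPM to 1405, 1419 and 1391 TPM, and Ctsd, cathepsin D, from 6133, 6310.5 and 6408 TPM to 7128, 7238 and 6980.4 TPM. Every combination library was above every IL-13 library for these 3 genes; the ratios of the means were 1.15, 1.12 and 1.13. Gaa, Ctsa and Mcoln1 also rose, whereas cathepsins Ctsb, Ctsk, Ctsl and Ctss and the macrophage marker Cd68 were not called. Under the other settings 3 to 8 rose and 0 to 3 fell: 4 rose without IL-13 replicate 1 and without IL-33+IL-13 replicate 2, 5 without IL-33+IL-13 replicate 3, 3 with median-ratio scaling and in a fit of the 6 libraries alone, and 5 by voom, which called 1 lower.

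**Figure D4:**
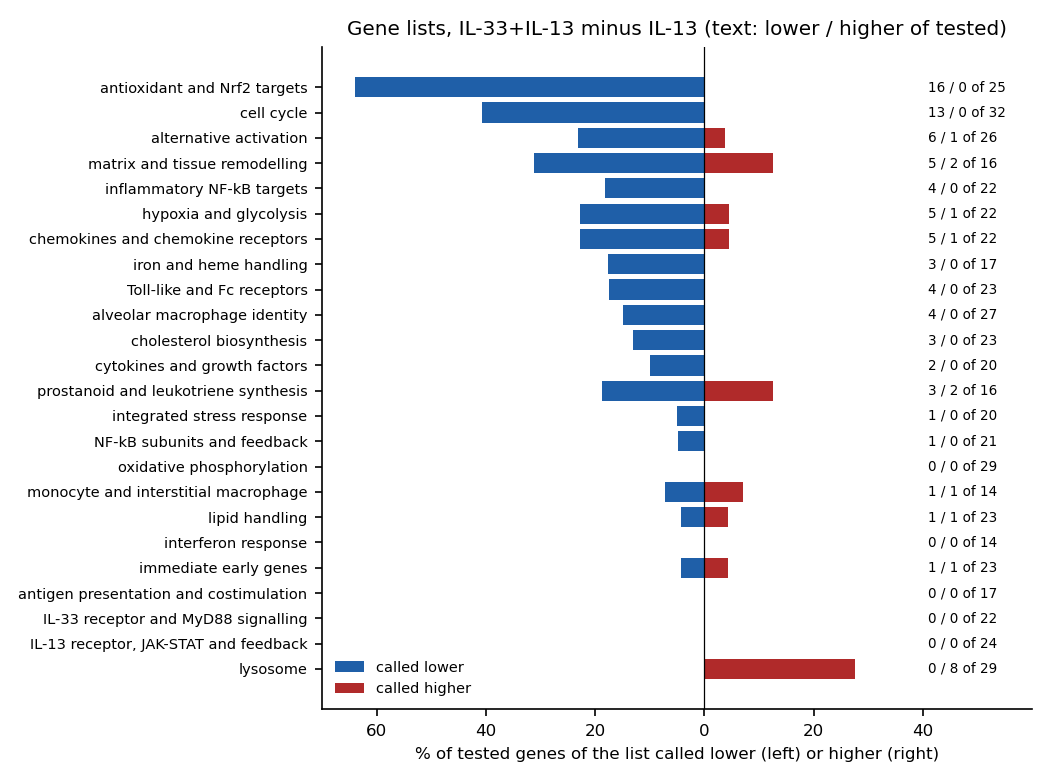
Share of the tested genes of each list called lower (left, blue) or higher (right, red) in IL-33+IL-13 against IL-13; the numbers give lower and higher calls of genes tested. The antioxidant list (16 of 25 lower) and the cell cycle list (13 of 32 lower) have the longest bars to the left. The lysosome list (8 of 29 higher) has the longest bar to the right, and 5 lists have no bar.

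Genes for receiving an IL-33 signal were not called, and ST2 itself was hardly detected. Il1rl1, which encodes ST2, on chromosome 1, bases 40429570 to 40465415, was at 0.0745, 0.0773 and 0.256 TPM with IL-13 and 0.0609, 0.0286 and 0.0269 TPM with IL-33+IL-13, with 19 reads over the 6 libraries, and was not tested. Il1rap was at 2.59 ± 0.125 and 2.72 ± 0.147 TPM, and Myd88 at 134 ± 6.37 and 122 ± 8.98 TPM. None of 22 genes of IL-33 receptor and MyD88 signalling was called by limma (2 at an unadjusted p under 0.05, 0 by voom), beside 2.57% of all tested genes. At that share a list of 22 genes would hold few calls or none. Of 21 NF-kB subunits and feedback genes 1 fell, beside 1.74% of all tested genes. It was the feedback inhibitor gene Tnip3 (6.83 ± 0.390 to 4.65 ± 0.156 TPM). With array weights 1 gene of the IL-33 receptor list, 1 of the IL-13 receptor list and 1 of the interferon list were lower. None of 14 interferon response genes (2 at an unadjusted p under 0.05), 17 antigen presentation genes (2) and 29 oxidative phosphorylation genes (0) was called by limma or by voom. Beside 2.57% of all tested genes called by limma, few calls or none would be expected in lists of these sizes too.

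The changes with IL-33 mostly ran against the IL-13 response. To place each gene in that response without using the 6 libraries again, cells given IL-13+IL-17A were set against untreated cells, a comparison added after the data had been seen, in which 3900 genes were called (29.5%), 1849 higher (14%) and 2051 lower (15.5%). Of the 230 genes lower with IL-33, 162 (70.4%) were called higher there and 17 lower; of the 110 higher with IL-33, 88 (80.0%) were called lower there and 11 higher. As a share of the response the counts were small: 162 were 8.76% of the 1849 raised genes, and 88 were 4.29% of the 2051 lowered genes. Among genes raised there by 2-fold or more it was 67 of 239 (28.0%), and by 4-fold or more 23 of 53 (43.4%). For the 250 genes called in both with opposite signs, a choice that fixes the direction and favours size, the change with IL-33 was 56.6% of the response on the log2 scale at the median, with quartiles of 36.3 and 80.0%, and 45 genes went past 100%. Over all 1849 raised genes the median log2 change with IL-33 was -0.06, over the 239 raised 2-fold or more -0.23, and over the 2051 lowered genes 0.05.

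**Figure D5:**
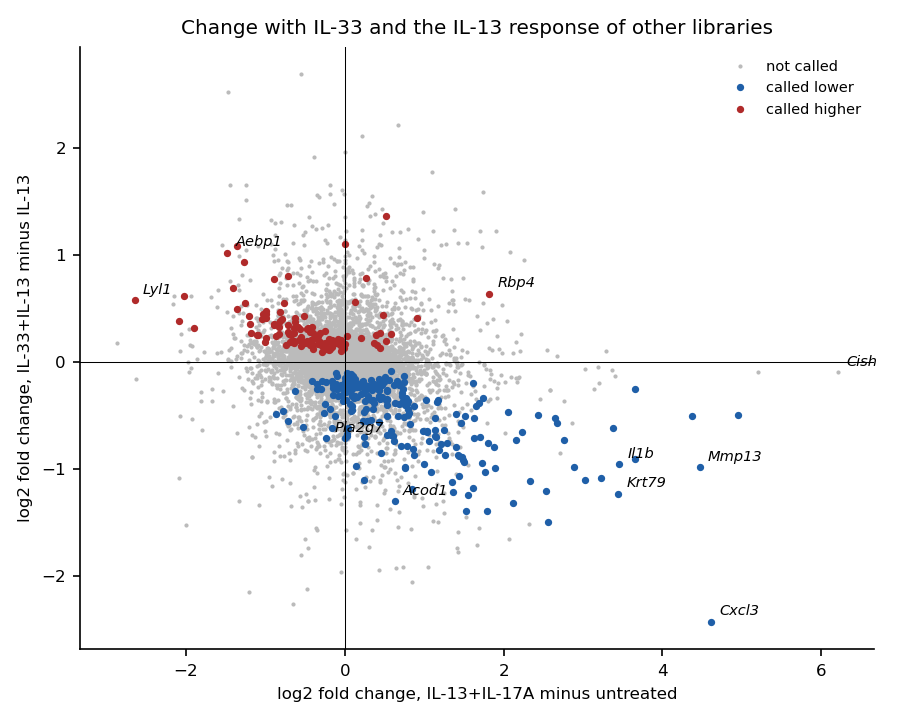
Log2 fold change with IL-33 added to IL-13 (vertical) against the log2 fold change of IL-13+IL-17A over untreated cells (horizontal) for 13215 genes; the 2 comparisons share no library. Genes called lower (blue) lie mostly to the right of 0 and genes called higher (red) mostly to the left, with Cish at the far right near 0 and Cxcl3 at the bottom right.

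The 20 genes with the largest rises in cells given IL-13+IL-17A over untreated cells, and at least 5 TPM, were followed. With IL-33 added to IL-13, 12 of them were lower and 8 were not called, beside 1.74% of all tested genes lower. The 12 were Ocstamp, Cxcl3, Mmp13, Ch25h, Cldn23, Chil3, Il1b, Krt79, Awat1, Dusp4, Fam181b and Car2. The 8 were Cish, Rnase2a, Ccl22, Irf4, Plekhf1, Il20rb, Cdh1 and Ptgs1, and their differences ran from -0.26 to -0.05 on the log2 scale. Car2, carbonic anhydrase 2, is an example of the former, at 35.8, 33.5 and 42.7 TPM with IL-13 and 17.4, 20.1 and 17.4 TPM with IL-33+IL-13, and Rnase2a, an eosinophil-type ribonuclease gene, of the latter, at 75.3, 74.8 and 51.4 and 53.9, 53 and 83.8 TPM with overlapping groups. Of the 20 largest falls with IL-13+IL-17A, 5 were higher with IL-33 (Lyl1, Tnni2, Gpr132, Ndrg1 and Aebp1) and none was lower, beside 0.832% of all tested genes higher.

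The same addition made in the presence of IL-17A gave like changes in 6 other libraries. IL-33+IL-13+IL-17A against IL-13+IL-17A called 469 genes (3.55%), 152 higher (1.15%) and 317 lower (2.4%); without IL-13+IL-17A replicate 1, 2 or 3 or IL-33+IL-13+IL-17A replicate 2 the total was 294, 308, 286 and 311, and in a fit of those 6 libraries alone it was 49. Of the 230 genes lower without IL-17A, 171 (74.3%, and 53.9% of the 317) were lower with it and 228 had the same sign, beside 63.3% of all genes below 0 there. Of the 110 higher, 75 (68.2%, and 49.3% of the 152) were higher with it and 107 had the same sign, beside 36.6% of all genes above 0. Cxcl3 was at 151, 154 and 188 TPM with IL-13+IL-17A and 24.3, 23.5 and 21.5 TPM with all 3 cytokines (log2 fold change -2.77, adjusted p = 2.01e-07), and Aebp1 at 13.1, 12.2 and 14.2 and 29.1, 25.2 and 26 TPM (0.97, adjusted p = 1.91e-06). Antioxidant genes were lower in 17 of 25, cell cycle genes in 21 of 32, and lysosomal genes higher in 8 of 29 with 1 lower. Not all calls were shared: Hdhd3 and Dusp13 had log2 differences of -0.10 and 0.01 with IL-17A present. The difference between the additions was tested itself, and limma called 0 genes (0.0%), with 480 below an unadjusted p of 0.05, 0.233 as the lowest adjusted p, and 0 by voom, while array weights called 68.

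Without IL-13, almost no gene was called with IL-33. IL-33 against untreated cells called 0 of 13215 genes by limma (0.0%), with 484 below an unadjusted p of 0.05, 0.691 as the lowest adjusted p, and 0 by voom. IL-33+IL-17A against IL-17A called 1 gene, lower (0.00757%): Brms1, with a log2 fold change of -0.21 and adjusted p = 0.043, named after its value was seen, and voom called 0. Of the 230 genes lower beside IL-13, 81 (35.2%) were below 0 with IL-33 alone, beside 52.3% of all genes, and of the 110 higher, 26 (23.6%) were above 0, beside 47.7%. The median log2 change with IL-33 alone was 0.02 for the former and -0.03 for the latter. Whether the response to IL-33 differed with IL-13 was tested as an interaction, (IL-33+IL-13 minus IL-13) minus (IL-33 minus untreated), and 155 genes passed (1.17%), 52 with a positive (0.393%) and 103 with a negative difference (0.779%). Cxcl3 had a log2 difference of 0.14 without and -2.43 with IL-13, an interaction of -2.57 (SE 0.29, adjusted p = 5.61e-05). For Nqo1 the difference was -1.43 (adjusted p = 0.000415), for Prdx1 -0.62 (adjusted p = 5.43e-06), for Pla2g7 -0.80 (adjusted p = 1.1e-06) and for Aebp1 0.79 (adjusted p = 0.00154). Of the antioxidant list 12 of 25 genes passed the interaction test, all with a negative difference. Tnf passed it without a call in either comparison: it was at 127 ± 9.10 TPM untreated and 160.1 ± 17 TPM with IL-33, and at 123 ± 8.52 TPM with IL-13 and 99.6 ± 6.14 TPM with both (difference -0.63, adjusted p = 0.0086).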

How the data were processed

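RNA of alveolar macrophages was sequenced in 24 libraries (8 groups of 3). The submitters' processing notes name STAR and mm10; how reads were counted, and whether by strand, is not stated in the labels. The authors deposited 1 table of TPM per library, with the gene span as length of every gene. Values times span gave whole reads within 0.05 reads for 89.6 to 91.7% of values up to 20 reads (10.0% by chance), or 9.12 to 12.86 M reads per library. Genes with at least 1 TPM in 3 libraries were fitted as log2(TPM + 1) with limma 3.58.1 (trend) in R 4.3.3, with 8 group means, 16 residual degrees of freedom and Benjamini-Hochberg adjustment over 13215 genes; the script was tested on simulated data. Overlapping genes cannot be told apart without strand, among them Lyl1, Ccl6, Mmp19, Pla2g7, Alox5ap, Ltc4s, Hexa and Lamp1. Named genes were the 15 largest changes in each direction (called, at least 5 TPM in a group, groups apart), up to 4 members per list by p, and fixed receptor and marker genes; other list members named as examples were picked after their values were seen. The comparison and the 32 lists were chosen with earlier results of these data known. Some called list members are not reported here by name.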

Additional observations from a re-analysis of the deposited data

Results flagged for a closer look

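Results are given here where the response to IL-33 differed between cells with and without IL-13, by limma's test of the difference itself, (IL-33+IL-13 minus IL-13) minus (IL-33 minus untreated), adjusted over 13215 genes. In all, 155 genes passed, 52 with a positive and 103 with a negative difference. Only named genes are listed below, so the lists are not complete. Most were named by their change in IL-33+IL-13 against IL-13, which is part of this difference. Every value below is that difference in log2(TPM + 1).

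Among genes of inflammation and host defence the differences were negative: Cxcl3 -2.57, Il1b -1.32, Ccl9 -1.08, Tnf -0.63, Ccl6 -0.62, Tnip3 -0.58, Sod2 -0.34, Fpr1 -1.38, Fpr2 -1.01, Clec4n -0.86, H2-M2 -1.68 and Acod1 -1.51. Proteases and growth factors gave -1.32 for Mmp8, -1.07 for Mmp13, -0.83 for Mmp19 and -0.45 for Igf1. Alternative activation and alveolar macrophage genes gave -1.30 for Krt79, -0.93 for Dcstamp, -0.80 for Chil4 and -0.71 for Ch25h.

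In antioxidant and heme genes the difference was -1.43 for Nqo1, -0.79 for Srxn1, -0.72 for Gclm, -0.62 for Prdx1, -0.46 for Cat, -0.71 for Blvrb, -0.35 for Slc48a1 and -1.48 for Gsta2. In cell cycle genes it was -1.18 for Mki67, -1.04 for Birc5 and -0.94 for Top2a. Of lipid mediator and metabolic genes, Pla2g7 gave -0.80, Alox5ap -0.49, Acat2 -0.44, Slc2a1 -0.36 and Slc3a2 -0.22. Other named genes with negative values were Eef1a2 -1.69, Lrrc32 -1.38, Dusp4 -1.37, Fam181b -1.30 and Csf1r -0.41.

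Positive differences were found for Hsd17b1 (0.96), Gchfr (0.93), Plbd1 (0.86), Apoe (0.80), Aebp1 (0.79), Lyl1 (0.77), Rbp4 (0.69), Hpse (0.61), Mreg (0.55), Tnni2 (0.50), Hcar2 (0.48), Tst (0.47), Ndrg1 (0.41), Spp1 (0.35) and Hpgds (0.34). The lysosomal genes Ctsd (0.27), Hexa (0.24) and Lamp1 (0.21) passed with small positive differences.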

How the results depend on the processing

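No paired analysis was possible because the labels give no replicate numbers that groups share. The counts of higher and lower genes stayed within 1.5 times of 110 and 230 under both pseudocounts, both filters, median-ratio scaling and voom. The genes called were not all the same. Of the 340 reported calls, 258 were kept with median-ratio scaling, 248 by voom, and 298 to 332 with the pseudocounts and filters. Leaving out 1 of the 6 libraries gave 55 to 90 higher and 139 to 206 lower genes. A fit of only the groups compared gave 32 higher and 112 lower genes, 49 genes for the addition of IL-33 beside IL-17A and IL-13 (469 reported), 3 for IL-33 alone (0 reported; Gm5510, Gm17194 and Gm2225, all pseudogenes) and 5 for IL-33+IL-17A against IL-17A (1 reported). Array weights gave 258 higher and 503 lower genes and 3665, 4, 383 (155 reported) and 68 (0 reported, the difference between additions); the weights did not converge. For IL-33+IL-17A against IL-17A, the filter at 5 TPM, median-ratio scaling, voom and leaving out 3 libraries chosen after seeing the data each gave 0, and the last gave 179 higher genes in the main comparison. Leave-one-out ranges of the other counts were 286 to 666, 0 to 0, 0 to 1, 114 to 152, 0 to 0 and, for IL-13 against untreated, 3326 to 3667. Of 79 named genes called, 44 were called under all 15 alternatives, and none reversed. The cause was not tested. Depth limits low genes such as Il1rl1.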

Other observations

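Some falls concerned genes that were not called in cells given IL-13+IL-17A, which does not show that they were unchanged there. Of 9315 genes not called in cells given IL-13+IL-17A against untreated cells, 51 were lower (0.548%) and 11 higher (0.118%) with IL-33 added to IL-13, beside 1.74 and 0.832% of all tested genes. Alox5ap is among the lower ones, and Pla2g7 was at 53.3 ± 1.02 TPM untreated, 46.8 ± 1.26 TPM with IL-13 and 28.1 ± 1.01 TPM with IL-33+IL-13, so the combination lay below both.

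Other gene lists held 1 to 3 called genes each, and 2.57% of all tested genes were called. Csf1r, the receptor for the macrophage growth factor CSF1, fell from 119, 117 and 115 TPM to 88.6, 102 and 89.6 TPM (limma log2 fold change -0.32, adjusted p = 0.0103), a call lost under 4 of the 15 other settings. Slc3a2, an amino acid transporter subunit, was the called member of 20 integrated stress response genes and fell from 282 ± 5.83 to 244 ± 8.72 TPM. Of 23 immediate early genes, Dusp4 fell and Maff, a small MAF transcription factor gene, rose from 86 ± 1.89 to 103 ± 8.16 TPM. In cholesterol synthesis, Acat2 fell from 29.8 ± 1.37 to 23.2 ± 1.48 TPM. Dhcr7 was lower as well (log2 fold change -0.21), as was Mvd (-0.19), and 16 of the 23 genes of that list were called higher with IL-13 against untreated cells, beside 14.1% of all genes.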
